A study of Mus musculus with 4 samples.

Results

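The genes described here are 10 genes of cytokinesis and the central spindle, *Anln*, *Ect2*, *Racgap1*, *Kif23*, *Prc1*, *Aurkb*, *Cit*, *Myh10*, *Rhoa* and *Nusap1*, in hearts of mice at postnatal day 7 (P7). They were listed by name, and each was found by its Entrez Gene identifier (68743, 13605, 26934, 71819, 233406, 20877, 12704, 77579, 11848 and 108907, in that order) among the 24454 genes of the count table. All 10 passed the filter on low counts, which left 14266 genes. RNA-seq was performed on 2 libraries from control (Ctrl) hearts, WH7 and WH8, and 2 from *miR-128* overexpressing (miR-128OE) hearts, WH9 and WH10. In the study's model, miR-128OE mice carry *α-MHC*-tTA together with *miR-128* TetRE, and Ctrl mice carry *miR-128* TetRE alone. The *α-MHC* promoter restricts the transactivator to cardiomyocytes (CMs), and doxycycline in the diet represses the transgene. Since Ctrl mice lack tTA, an effect of tTA cannot be told apart from that of *miR-128*. The doxycycline schedule of these P7 hearts and the number of hearts behind a library are not given in the sources used here, so the p-values measure only the spread between these libraries.

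Library totals were 12385863 counts in WH7, 8096870 in WH8, 12440553 in WH9 and 14359838 in WH10. *Mir128-2*, a gene that encodes *miR-128*, was counted 2 times in WH9 and 10 times in WH10 and had 0 counts in both Ctrl libraries, and *Mir128-1* had 0 counts in all 4 libraries. A count of 0 allows up to 3 counts, or 0.242 CPM (counts scaled to the library total) in WH7 and 0.371 CPM in WH8, by counting error alone. RNA-seq of this kind measures a short hairpin poorly, so these counts check the labels only weakly. Counts of *Xist*, the RNA that coats the silenced X, were 14543 in WH7, 11339 in WH8, 94 in WH9 and 132 in WH10. Those of Y-linked *Ddx3y* were 13, 7, 1442 and 1768 in the same order. Thus the sex of the mice and the condition cannot be told apart in these libraries. The 10 cytokinesis genes all lie on autosomes, but neither this nor a fit of autosomal genes alone separates sex from condition. *Myh6*, the cardiac myosin heavy chain, stood at 14245 to 18382 CPM after scaling by TMM factors, as the label of heart tissue calls for.

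Cytokinesis is the final step of cell division, in which an actomyosin ring splits the cytoplasm between the separated chromosomes. Antiparallel microtubules bundled by PRC1 form the central spindle. There the centralspindlin complex, made of the kinesin KIF23 and the GTPase-activating protein RACGAP1, recruits the exchange factor ECT2, which loads the small GTPase RHOA with GTP at the cell equator. RHOA in turn drives nonmuscle myosin and anillin (*Anln*) into the ring, and Aurora B (*Aurkb*) and citron kinase (*Cit*) act on the central spindle and the midbody. In the mouse heart, CMs leave the cell cycle in the days after birth, and many pass through mitosis without completing cytokinesis and become binucleated. Most of these genes are transcribed mainly in the G2 and M phases of dividing cells of any type, whereas *Rhoa* and *Myh10* are also cytoskeletal genes of cells that do not divide.

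At P7, *Ect2*, *Kif23*, *Nusap1*, *Prc1* and *Racgap1* were lower in miR-128OE than in Ctrl hearts, *Ect2* by the largest amount (log2 fold change −1.03). These 5 of the 10 genes passed an adjusted p-value of 0.05, and 0 were higher. Here and below, the adjusted p is that of the quasi-likelihood test in edgeR after Benjamini-Hochberg correction over all genes tested, and SE is the standard error of a log2 fold change. Of all 14266 genes, 15.0% were lower and 16.5% higher by the same rule, 31.5% in all. The median log2 fold change was −0.40 over the 10 genes and −0.01 over all genes, and that of the 10 genes was −0.17 without WH8 and −0.64 without WH7. For 7 of the 10 genes both miR-128OE libraries lay below both Ctrl libraries, as did 34.4% of all genes, and for *Rhoa* both lay above, as did 33.7% of all genes. These are bulk hearts, in which fewer dividing cells and less RNA per dividing cell cannot be told apart.

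**Figure D1:**
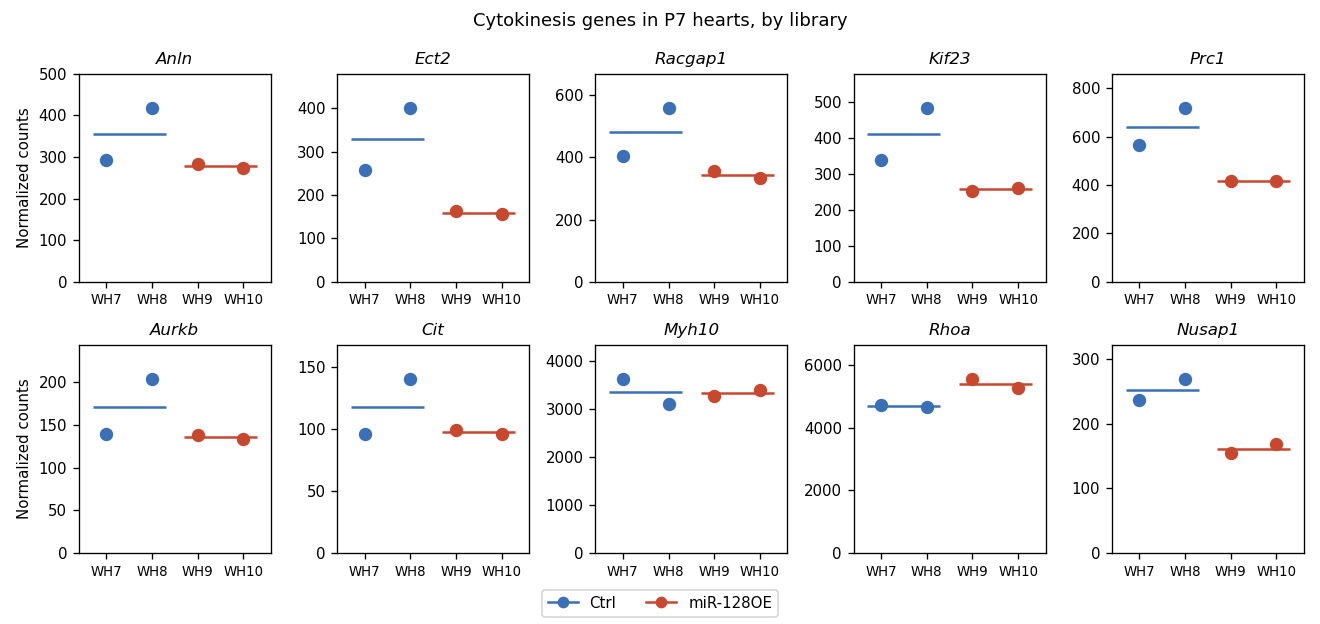
Normalized counts (vertical axes, from 0) of the 10 cytokinesis genes in Ctrl libraries WH7 and WH8 (blue) and miR-128OE libraries WH9 and WH10 (red), with a line at each group's mean. WH8 is the highest library for *Anln*, *Ect2*, *Racgap1*, *Kif23*, *Prc1*, *Aurkb*, *Cit* and *Nusap1*, whereas WH9 and WH10 lie close together.

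*Ect2* encodes the exchange factor that activates RHOA at the equator. The gene spans 27097222 to 27153878 of chromosome 3 (GRCm38, as for all positions below). Its level, in counts scaled to the mean effective library size, was 258.8 in WH7, 400.0 in WH8, 162.4 in WH9 and 156.4 in WH10. Both miR-128OE libraries were below both Ctrl libraries, and the Ctrl libraries differed from each other by a factor of 1.55. The means were 329 ± 99.8 in Ctrl and 159 ± 4.20 in miR-128OE hearts (SD, n = 2). The log2 fold change was −1.03 (SE 0.20, adjusted p = 0.00428).

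Both subunits of centralspindlin were lower as well. *Kif23*, the motor subunit, on chromosome 9 from 61915905 to 61946774, had 339 normalized counts in WH7, 482 in WH8, 253 in WH9 and 261 in WH10. The groups did not overlap, and the log2 fold change was −0.66 (SE 0.16, adjusted p = 0.0133). Against a fold of 1.2 the *Kif23* call was lost (glmTreat, adjusted p = 0.0505). *Racgap1*, which binds both KIF23 and ECT2, on chromosome 15 from 99620496 to 99651656, had 405 normalized counts in WH7, 558 in WH8, 356 in WH9 and 333 in WH10. The gap between the groups was smaller than the gap between the Ctrl libraries, as it also was for *Ect2*, *Kif23* and *Prc1* but not for *Nusap1*. The log2 fold change was −0.47 (SE 0.15, adjusted p = 0.0383). The call was lost with DESeq2 (adjusted p = 0.0508) and against a fold of 1.2 (glmTreat, adjusted p = 0.151). It was also lost after correcting for GC and exon length (−0.40, adjusted p = 0.0668). Of the stretches of 50 bases in annotated *Racgap1* transcripts, 4.05% also occur in transcripts of other genes, and how reads matching more than a single gene were counted is not stated.

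For the microtubule proteins of the central spindle, WH8 exceeded WH7 by a smaller factor, 1.27 for *Prc1* and 1.13 for *Nusap1*. *Prc1*, the bundler of antiparallel microtubules, on chromosome 7 from 80294450 to 80316259, had 564 normalized counts in WH7, 717 in WH8, 414.8 in WH9 and 414.7 in WH10. Both miR-128OE values were below the lower Ctrl library, with a log2 fold change of −0.62 (SE 0.12, adjusted p = 0.00515). *Nusap1*, which bundles spindle microtubules near chromosomes, on chromosome 2 from 119618298 to 119651244, had 237 normalized counts in WH7, 269 in WH8, 154 in WH9 and 168 in WH10. The log2 fold change was −0.64 (SE 0.14, adjusted p = 0.0083), and the spread within each group was small beside the difference. Both genes overlap a neighbor on the opposite strand. *Rccd1* shares 911 bases, or 11.1%, of the exon bases of *Prc1*, and its log2 fold change was −0.36 (adjusted p = 0.103). *Oip5*, a centromere gene, shares 172 bases, or 4.24%, of those of *Nusap1*, and it was lower with a log2 fold change of −1.22 (adjusted p = 0.00762). Whether the counting used strand is not stated, so reads in these stretches cannot be assigned with certainty.

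*Aurkb*, the kinase of the chromosomal passenger complex and a common marker of cytokinesis in CMs, did not pass the threshold. It lies on chromosome 11 from 69045647 to 69051664 and had 139.0 normalized counts in WH7, 203.5 in WH8, 138.6 in WH9 and 133.7 in WH10. Ctrl library WH7 was thus level with the miR-128OE libraries, and WH8 alone was higher. The log2 fold change was −0.31, with a 95% interval from −0.75 to 0.13 (adjusted p = 0.261).

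Among genes of the ring and midbody, *Anln* and *Cit* had the same shape. *Anln*, the scaffold that links actin, myosin and septins, on chromosome 9 from 22332012 to 22389188, had 292 normalized counts in WH7, 417 in WH8, 284 in WH9 and 273 in WH10. Again WH7 lay near the miR-128OE libraries, and the log2 fold change of −0.33 had a 95% interval from −0.70 to 0.03 (adjusted p = 0.15). *Cit*, on chromosome 5 from 115845278 to 116008947, had 96.0 normalized counts in WH7, 139.9 in WH8, 99.0 in WH9 and 95.9 in WH10. The groups overlapped, and the log2 fold change was −0.25, with a 95% interval from −0.74 to 0.24 (adjusted p = 0.408).

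The cytoskeletal genes did not share the lower values. *Myh10*, the heavy chain of nonmuscle myosin IIB, on chromosome 11 from 68691559 to 68816632, had 3615 normalized counts in WH7, 3105 in WH8, 3267 in WH9 and 3403 in WH10. The miR-128OE values lay between the Ctrl values, and the log2 fold change of −0.01 had a narrow 95% interval from −0.22 to 0.19 (adjusted p = 0.935). *Rhoa*, the GTPase at the head of ring assembly, on chromosome 9 from 108306129 to 108337934, had 4724 normalized counts in WH7, 4643 in WH8, 5535 in WH9 and 5269 in WH10. Both miR-128OE libraries were above both Ctrl libraries, but the log2 fold change of 0.21 did not pass the threshold (SE 0.08, adjusted p = 0.081). Correcting for GC and exon length raised *Rhoa* past the threshold (0.27, adjusted p = 0.0321), as did leaving out WH7 (0.22, adjusted p = 0.0459). Scaling by library totals lowered it to 0.11 (adjusted p = 0.318), and the adjusted p was 0.409 without WH9 and 0.209 without WH10. Of the stretches of 50 bases in *Rhoa* transcripts, 7.42% also occur in other annotated transcripts, among them pseudogenes. Stretches shared with genes that do not overlap *Rhoa* made up 3.77%. On the opposite strand, *Gm37401* shares 324 bases, or 4.32%, of the exon bases of *Rhoa*, and *Tcta* shares 32 bases, or 0.427%.

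Levels were next compared between the genes per length, as RPKM. This is the CPM of a gene, after scaling by TMM factors, per kilobase of its annotated exons. In Ctrl hearts, *Rhoa* stood at 53.1 ± 0.652 RPKM and *Myh10* at 27.3 ± 2.93 RPKM (SD, n = 2), far above the others. *Prc1* followed at 6.61 ± 1.11 RPKM, and *Cit* was the lowest at 0.610 ± 0.161 RPKM (SD, n = 2). Between them, *Racgap1*, *Nusap1*, *Ect2*, *Aurkb*, *Kif23* and *Anln* ranged from 5.78 to 3.32 RPKM on average. From *Prc1* down to *Anln*, the Ctrl ranges of neighbors in this order overlapped, so that part of the order is not settled by the replicates. In miR-128OE hearts *Ect2* stood at 2.51 ± 0.0662 RPKM and *Anln* at 2.61 ± 0.0772 RPKM (SD, n = 2), and their ranges overlapped.

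**Figure D2:**
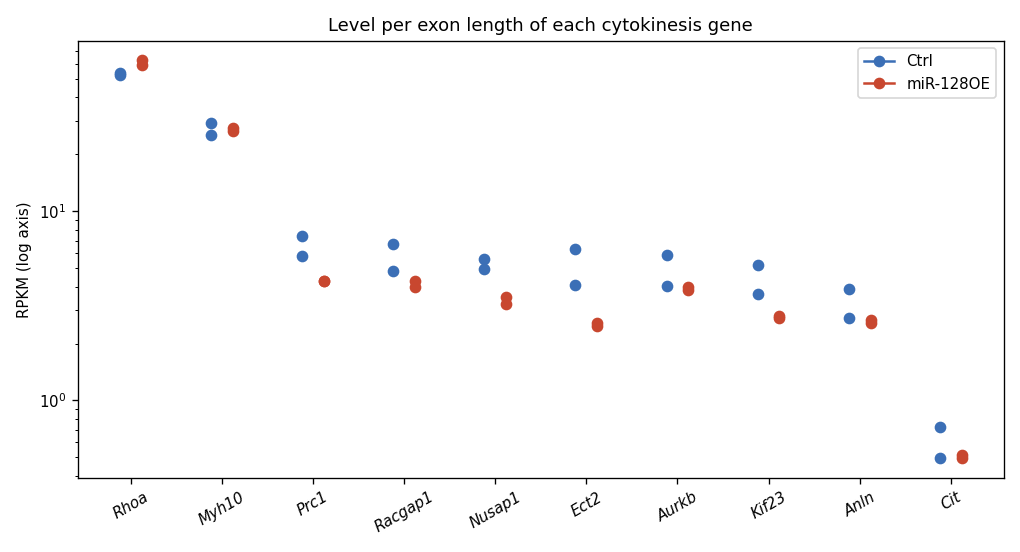
Level of each gene in RPKM (log axis) in the 2 Ctrl (blue) and 2 miR-128OE (red) libraries, ordered by the Ctrl mean. *Rhoa* and *Myh10* lie above 25 RPKM in each library, whereas the other genes lie below 7.5 RPKM.

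The Ctrl libraries differed from each other for the genes of dividing cells. WH8 exceeded WH7 for 8 of the 10 genes, by a factor of 1.13 for *Nusap1* to 1.55 for *Ect2*, but not for *Myh10* (0.859) or *Rhoa* (0.983). Over all 14266 genes, WH8 exceeded WH7 for 7612, with a median ratio of 1.01. Without WH8, the log2 fold changes were −0.70 for *Ect2*, −0.40 for *Kif23*, −0.55 for *Nusap1* and −0.44 for *Prc1*. *Racgap1* then had −0.23, *Anln* −0.07, *Aurkb* −0.03 and *Cit* 0.024. Without WH7, *Anln* and *Aurkb* both had −0.58. Leaving out a miR-128OE library moved the fold changes of *Ect2*, *Kif23*, *Prc1* and *Racgap1* by less than leaving out WH8 did. Without WH10, *Ect2* had −0.99, *Nusap1* −0.69 and *Prc1* −0.60. Without WH9, *Ect2* had −1.04, *Nusap1* −0.57 and *Prc1* −0.61. In the fits without WH9 or WH10 the spread between libraries came from the Ctrl pair alone. Across the fits with a library left out, the log2 fold change of *Ect2* lay between −1.33 and −0.70. Each of these fits has a lone library in a group, and calls over the whole table also moved. Calls are therefore not compared here.

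**Figure D3:**
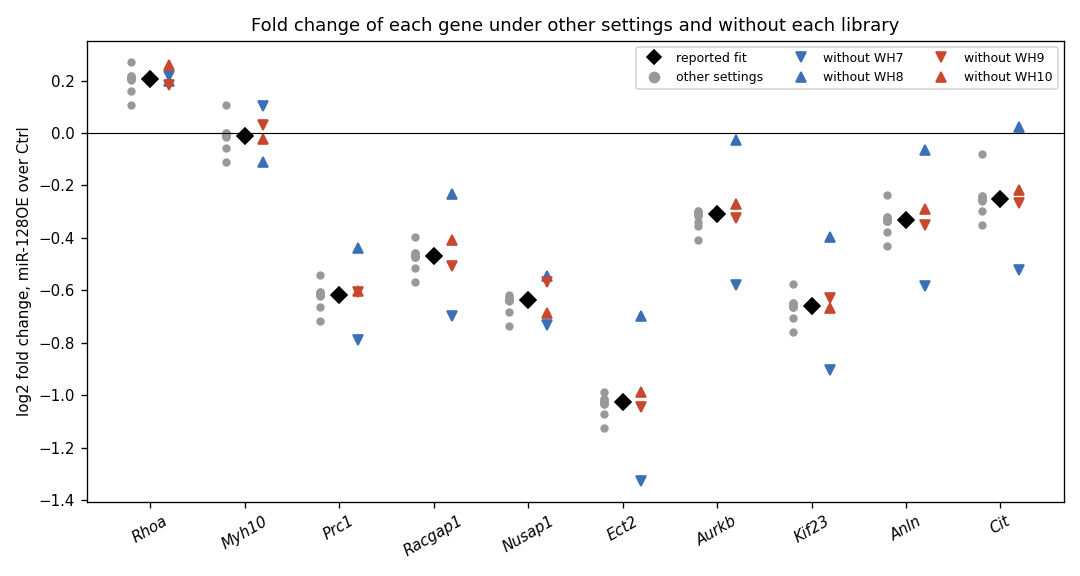
Log2 fold change of each gene (vertical axis) in the reported fit (black), with each library left out (triangles) and under other normalizations, filters, tests and offsets (grey). The blue triangles, without WH7 or WH8, lie farthest from the reported value for *Ect2*, *Kif23*, *Racgap1*, *Anln*, *Aurkb* and *Cit*.

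Promoters were then read for letters that genes of the G2 and M phases are known to carry. The cell cycle genes homology region (CHR, TTTGAA) is bound by the DREAM and MuvB complexes, of which DREAM keeps such genes off in resting cells. The CCAAT box (CCAAT) is bound by NF-Y. Windows of RefSeq (GRCm38.p6) from 250 bases before to 50 bases after a gene start were matched for 9 of the 10 genes, all but *Aurkb*. The CHR letters, on either strand, were in the windows of 5 genes, *Anln*, *Ect2*, *Racgap1*, *Kif23* and *Prc1*, and in 17.9% of all 32851 windows. CCAAT letters, on either strand, were in 5 genes and in 37.4% of all windows, and *Ect2*, *Racgap1*, *Kif23* and *Prc1* held both, as did 6.95% of all windows. *Cit*, *Rhoa* and *Nusap1* held neither, and *Myh10* held CCAAT letters at 3 places but no CHR letters. Stretches of 30 bases that hold the CHR letters nearest the gene start follow, on the strand of the gene, with CHR and CCAAT letters of either strand in capitals. They are shown because *Ect2*, *Racgap1*, *Kif23* and *Prc1* were lower and *Anln* was not called.
*Kif23*, chr9:61946780-61946809, minus strand: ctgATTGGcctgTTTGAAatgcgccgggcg
*Racgap1*, chr15:99651641-99651670, minus strand: tgATTGGctggtgcgtgatTTTGAAccgga
*Prc1*, chr7:80294434-80294463, plus strand: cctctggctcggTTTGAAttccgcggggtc
*Ect2*, chr3:27153829-27153858, minus strand: gagagagcgactggattttTTTGAAtcgga
*Anln*, chr9:22389161-22389190, minus strand: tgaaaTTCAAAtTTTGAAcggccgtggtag

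Bases are counted from the RefSeq gene start, which can differ from the GENCODE bounds given above and for *Kif23* and *Anln* lies upstream of them. In *Kif23* the CHR letters start at base 3 and the CCAAT box, read on the opposite strand, ends 4 bases before them. In *Racgap1* they start at base 6, with 12 bases between the 2 motifs. In *Prc1* they start at base −5 from the more upstream of its 2 listed gene starts and lie 27 bases after a CCAAT box, outside the printed window. *Ect2* has CHR letters at bases −114 and 40 from the more upstream of 2 listed starts. *Anln*, the gene with CHR letters that did not pass the threshold, holds them at bases 22 and 29 on opposite strands, with no CCAAT letters. *Nusap1*, which was lower, shows that the lower genes do not all carry these letters in this window. A match of letters is a description and was not tested as a site.

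**Figure D4:**
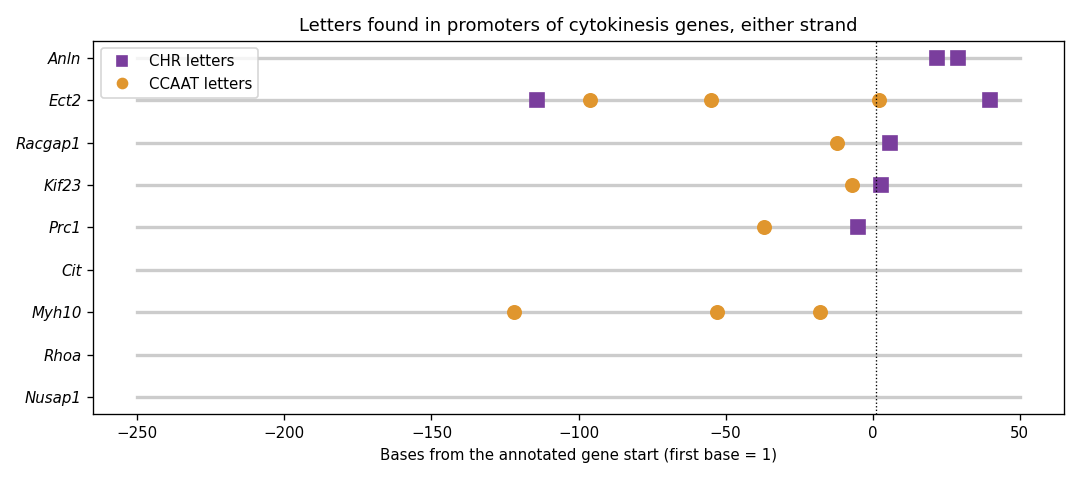
Start of CHR letters (squares) and CCAAT letters (circles) on either strand, in bases from the annotated gene start (horizontal axis), for the 9 genes with a listed promoter and, where several are listed, the most upstream. CHR letters sit within 40 bases of the start in *Anln*, *Ect2*, *Racgap1*, *Kif23* and *Prc1*.

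*miR-128-3p*, the overexpressed microRNA, pairs with target mRNAs mainly through its seed, bases 2 to 8, shown in capitals beside the matches found, so that the pairing can be read. The microRNA sequence is that of RefSeq, and 3′UTRs are those of protein-coding transcripts in GENCODE M21 of GRCm38. Seed matches are in capitals in the 3′UTR stretches.
mmu-miR-128-3p: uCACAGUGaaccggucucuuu
*Nusap1* 3′UTR, chr2:119649756-119649778, plus strand: taaataaaaattttCACTGTGAt
*Cit* 3′UTR, chr5:116007724-116007745, plus strand: tctaccccactgaaACTGTGAc

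The longest 3′UTR of *Nusap1*, of 2255 bases, carries a match to the seed followed by A (an 8mer) from base 781, and that of *Cit*, of 2619 bases, a shorter match (ACTGTGA, a 7mer-A1) from base 1410. These are 2 of the 10 genes, against 4175 of the 13463 tested genes with a 3′UTR (31.0%). *Nusap1* was lower in miR-128OE hearts (log2 fold change −0.64) and *Cit* did not pass the threshold (−0.25). *Ect2*, *Kif23*, *Prc1* and *Racgap1*, the other lower genes, have 3′UTRs of 1177, 384, 1109 and 893 bases with 0 seed matches. Pairing was not measured here.

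Beyond the 10 genes, 58 other genes listed for cytokinesis were read by role, some of which also act in mitosis or the general cytoskeleton. Of the 57 tested, 9 were higher and 9 lower, near the shares over all genes (16.5% and 15.0%), and the median log2 fold change was 0.02. Scaling by library totals alone gave 5 higher, 16 lower and a median of −0.08, and it moved the median of all genes from −0.01 to −0.11. The partners of *Aurkb* in the passenger complex were all lower. *Incenp*, its scaffold, had 551 normalized counts in WH7, 799 in WH8, 356 in WH9 and 365 in WH10, with a log2 fold change of −0.89 (adjusted p = 0.00294). *Birc5*, which encodes survivin, had −0.59 and *Cdca8*, which encodes borealin, −0.52 (adjusted p = 0.0205 and 0.0356), and neither passed without WH8 (−0.36 and −0.26), without WH9 (adjusted p = 0.0555 and 0.17), without WH10 (adjusted p = 0.156 and 0.133) or against a fold of 1.2. *Cdca8* also missed it after the GC and length correction (adjusted p = 0.0504). Among paralogs of *Aurkb*, *Aurka* had −0.28 (adjusted p = 0.298), or −0.50 without WH9 and −0.057 without WH10, and *Aurkc* had 0, 1, 2 and 1 counts, too few to test.

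Of 8 other genes of the central spindle, 3 were lower and 1 was higher, beside 15.0% and 16.5% of all genes. *Kif20b*, a kinesin of the central spindle and midbody, had 440 normalized counts in WH7, 647 in WH8, 197 in WH9 and 221 in WH10. Its log2 fold change of −1.36 (SE 0.18, adjusted p = 0.000642) was the most negative of the 57 genes. X-linked *Kif4*, the kinesin that works with PRC1, had −0.85 (adjusted p = 0.00405). *Clasp2* was lower (−0.30, adjusted p = 0.0375), a call not checked under other settings. *Clasp1*, the paralog of *Clasp2* in stabilizing microtubules, was higher (0.43, adjusted p = 0.0106). The groups overlapped for neither gene. The *Clasp1* call was lost without WH9 (adjusted p = 0.101) and against a fold of 1.2 (adjusted p = 0.0985).

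Of 20 GTPase and contractile ring genes tested, 6 were higher and 2 lower, beside 16.5% and 15.0% of all genes, and the median of the list was 0.13 (log2). *Rhob*, a close relative of *Rhoa* that responds to stress and growth signals, had 1910 normalized counts in WH7, 1705 in WH8, 3442 in WH9 and 3231 in WH10, with a log2 fold change of 0.88 (SE 0.09, adjusted p = 0.00017). *Rhoc*, the other paralog, rose by less (0.44, adjusted p = 0.00347), and *Myl12a*, a regulatory light chain of nonmuscle myosin, by 0.70 (adjusted p = 0.000409). *Cdc42* (0.36) and *Cfl1*, which encodes cofilin (0.32), also rose. The kinases downstream of RHOA moved apart, with *Rock1* lower (−0.31, adjusted p = 0.019) and *Rock2* higher (0.24, adjusted p = 0.0431). *Arhgap11a*, a GTPase-activating protein of dividing cells, was the other lower gene (−0.76, adjusted p = 0.00942). The calls of *Cdc42*, *Cfl1*, *Rock1*, *Rock2* and *Arhgap11a* were not checked under other settings. The paralogs of *Myh10* did not pass the threshold, with *Myh9* at 0.16 and *Myh14* at 0.34 (adjusted p = 0.154 and 0.126). *Myh14* rested on the Ctrl library used, with 0.085 without WH7 and 0.60 without WH8 (adjusted p = 0.618 and 0.00184), and *Myh9* had 0.30 after the GC and length correction (adjusted p = 0.0219) and 0.060 with library totals.

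Septins and abscission genes were read last, beside 31.5% of all genes called in either direction. Of 8 septins, which form filaments under the furrow, *Septin10* alone was lower (−0.36, adjusted p = 0.0429), and it missed the threshold with DESeq2 (adjusted p = 0.133), against a fold of 1.2 and without WH8, WH9 or WH10. *Septin5* and *Septin8* had log2 fold changes of −0.37 and −0.17 (adjusted p = 0.0587 and 0.114). *Septin5* passed with upper-quartile factors, library totals, the edgeR exact test and the GC and length correction (adjusted p from 0.0254 to 0.0494), and *Septin8* with library totals (adjusted p = 0.023). Of 17 genes of abscission, the final cut, 2 were higher and 0 lower. These were the ESCRT-III subunits *Chmp2b* (0.35, adjusted p = 0.0138) and *Chmp4b* (0.31, adjusted p = 0.015), neither of which passed with total counts, against a fold of 1.2, without WH9 (adjusted p = 0.0924 and 0.157) or without WH10 (adjusted p = 0.118 and 0.0766). *Chmp4b* was also lost after the GC and length correction (adjusted p = 0.0519). *Cep55*, which recruits ESCRT to the midbody and is transcribed late in the cell cycle, had 147 normalized counts in WH7, 212 in WH8, 130 in WH9 and 107 in WH10. Its log2 fold change was −0.59 (adjusted p = 0.0559), with −0.32 without WH8 and −0.85 without WH7 (adjusted p = 0.233 and 0.00348). *Cep55* also passed with upper-quartile factors, library totals, no filter and the edgeR exact test.

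**Figure D5:**
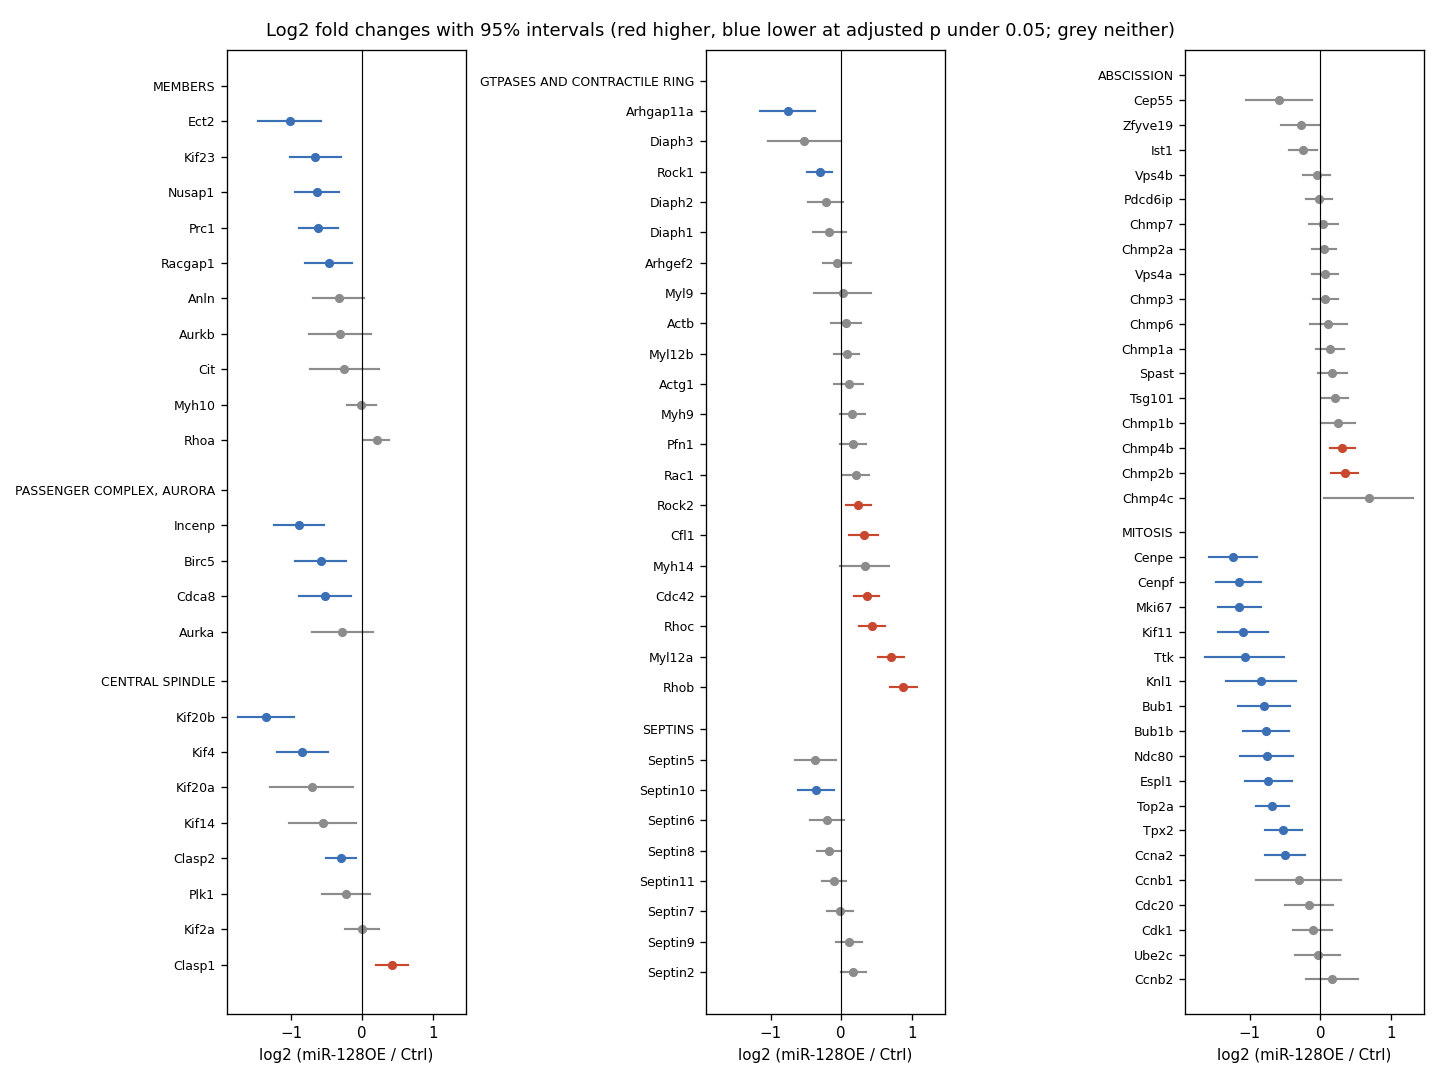
Log2 fold change, miR-128OE over Ctrl (horizontal axes), with its 95% interval, for the 10 cytokinesis genes (Members), 57 other cytokinesis genes by role and 18 genes of mitosis. Blue marks genes that were lower and red genes that were higher at an adjusted p-value under 0.05, and the 13 blue genes of mitosis reach −1.24.

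Genes of mitosis itself were set beside them as a reference for dividing cells. Of 18 tested, 13 were lower and 0 higher, beside 15.0% and 16.5% of all genes, and their median was −0.75 on the log2 scale, against −0.40 for the 10 cytokinesis genes and −0.01 for all genes. *Mki67*, which encodes Ki67, had −1.15, and the kinetochore genes *Cenpe* and *Cenpf* had −1.24 and −1.16 (adjusted p = 0.000388, 0.000459 and 0.000484). The list was not uniform. *Ccnb1*, *Ccnb2*, *Cdc20*, *Cdk1* and *Ube2c*, all 5 that missed the threshold, ranged from −0.31 to 0.17, and their groups overlapped. WH8 exceeded WH7 for all 18 genes, with a median ratio of 1.33, whereas the median ratio of WH10 to WH9 was 0.986. Without WH8, the median log2 fold change was −0.60 for the mitotic genes and −0.01 for all genes.

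Markers of cell types were summed over whole lists, in CPM after scaling by TMM factors. The 8 CM markers summed to 43186 in WH7, 44272 in WH8, 57529 in WH9 and 56070 in WH10, with *Actc1* (log2 fold change 1.34), *Pln* (0.59) and *Myh6* (0.33), the most abundant, higher and *Ryr2* (−0.40) lower. *Myl7*, the atrial myosin light chain, differed most of these 8 markers between the Ctrl libraries, with 22943 normalized counts in WH7 and 3309 in WH8, against 10435 in WH9 and 10316 in WH10. WH8 was thus the lowest library for this atrial gene and the highest for 8 of the 10 cytokinesis genes, and the part of atrial tissue in these differences was not tested. The 7 endothelial markers (leading gene *Cdh5*) summed to 1792, 1799, 1878 and 1801 in the same order, with *Pecam1* and *Cdh5* higher and *Egfl7* and *Emcn* lower. The 7 fibroblast markers (*Col1a1*) summed to 6712, 4377, 5520 and 6194, with *Lum* alone higher. In WH8, the library with the highest cytokinesis genes, fibroblast markers were at their lowest. The 7 macrophage markers (*Csf1r*) summed to 104, 73.4, 81.5 and 83.9 and the 5 epicardial markers (*Msln*) to 117, 54.7, 73.0 and 63.7, with 0 called in either. The 6 markers of smooth muscle and pericytes (*Acta2*) summed to 1683, 1606, 2165 and 2423, with *Acta2* (0.94) and *Rgs5* (0.29) higher and *Myh11* (−0.64) lower. Of 6 erythroid markers (*Tfrc*), which summed to 205, 232, 244 and 250, *Hba-a1* and *Hbb-bs* were listed at 0 in each library and *Alas2* (1.05) was the only 1 of the 4 tested to be higher. The 4 lymphocyte markers (*Ptprc*) summed to 15.6, 19.4, 14.5 and 14.2, and 0 of the 3 tested were called. In the fibroblast, macrophage, epicardial, erythroid and lymphocyte lists, most markers tested did not pass the threshold. Of the CM, endothelial, and smooth muscle and pericyte markers, 4 of 8, 3 of 7 and 3 of 6 did not pass. Over all genes tested, 31.5% were called in either direction. Each sum is carried by the most abundant genes of its list. The part of these cells in the lower cytokinesis genes was not tested.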

How the data were processed

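RNA-seq counts of 4 P7 heart libraries were used. Per the labels and methods, the authors removed low-quality reads, aligned to mm10 with TopHat2 and deposited raw counts per Entrez gene, with gene models, strand and multi-mapping not given in the sources used here. Of 24454 identifiers, 24380 were matched to a symbol in RefSeq (GRCm38.p6) or GENCODE M21. The main test was edgeR 4.0.16 (R 4.3.3) with filterByExpr (minimum 10 counts, total 15), TMM factors and the quasi-likelihood test, with Benjamini-Hochberg adjustment over 14266 genes. Standard errors follow from the fold change and its F statistic, and 95% intervals use its degrees of freedom. RPKM used the union of GENCODE exons. The fit was tested on simulated data. Libraries held 8096870 to 14359838 counts, and limits drawn from a count of 0 cover counting error only, without molecular identifiers. Alternatives included DESeq2 1.42.0, glmTreat, other factors, filters, a GC and length offset, autosomal genes and each library left out. Members and lists were chosen with earlier results of these data known. Named genes are the members, their paralogs, genes overlapping them, the 3 with the smallest p-value per list, *Mki67*, leading markers and sex-linked checks. *Ccnb1*, *Ccnb2*, *Cdc20*, *Cdk1*, *Ube2c*, *Clasp2*, *Cdc42*, *Cfl1*, *Rock1*, *Rock2*, *Arhgap11a* *Myl7* and the called markers were named after their values were seen. The result of 1 marker list is not reported here. Scripts used Python 3.11.15.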

Additional observations from a re-analysis of the deposited data

How the results depend on the processing

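The same 5 genes were lower with RLE, upper-quartile and total-count scaling, either filter, the edgeR exact test and autosomal genes alone. With DESeq2 or the GC and length offset 4 of them were, and the offset made 1 of the 10 (*Rhoa*) higher. Against a fold of 1.2 (glmTreat), 3 of the 10 were lower, 3 wider genes were higher and 4 lower, and 1070 of all genes were higher and 1082 lower. DESeq2 called 1410 genes lower. With total counts, 5 wider cytokinesis genes were higher and 16 lower, against 1611 higher and 2948 lower calls over the table. Leaving out each library in turn gave 1 to 7 of the 10 genes lower and 0 to 1 higher, 3 to 11 wider genes higher and 3 to 13 lower, 7 to 14 mitotic genes lower and 0 to 1 higher, and 897 to 2654 of all genes higher and 667 to 2384 lower. These fits rest on a lone library that is assumed to vary like the other group. *Myh10* changed sign with the offset (0.11), without WH7 and without WH9 (0.03), and ranged from −0.11 to 0.10 as libraries were left out. *Cit* changed sign without WH8 and ranged from −0.52 to 0.024, with none of these past the threshold. No paired analysis was made, because no label ties a Ctrl library to a miR-128OE library. With 2 libraries a group, *Cit* and *Aurkb* have wide intervals (SE 0.22 and 0.20), and so does *Ect2* (SE 0.20).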
